A study of Mus musculus with 30 samples.

Results

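Copying a genome needs a fixed set of proteins, and this account follows the transcripts of 50 of their genes in cultured mouse aortic smooth muscle cells. The genes were taken from a list of replication licensing, fork and nucleotide supply genes and were found by symbol and Ensembl identifier: all 50 were present among the 78334 identifiers of the count table. All 50 passed the filter on low counts in both sequencing runs, where 15350 and 15103 genes were tested. They fall into 8 roles: 6 MCM helicase subunits, 9 origin recognition and licensing genes, 6 genes of helicase activation, 9 polymerase and primase subunits, 6 genes of the clamp and its loader, 5 genes of single-strand binding and Okazaki fragment joining, 5 genes of nucleotide supply, and 4 genes of chromatin assembly and fork protection.

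The study measured RNA in 30 libraries from 9 groups of aortic smooth muscle cells to ask what CASC15, a long noncoding RNA gene, does in these cells. All cells were serum-starved for 48 h and transfected for at least 24 h, so every control carried a transfected antisense or plasmid control. In run 2, all untreated, there were 2 libraries with the control GapmeR (an antisense oligonucleotide), 2 libraries labelled total CASC15 knockdown, 3 libraries with the control plasmid and 3 with total CASC15 overexpression from a plasmid. In run 3, 4 libraries each had the control GapmeR with no treatment, the control GapmeR with angiotensin II (10 ng/ml), the control GapmeR with PDGF-BB (10 to 30 ng/ml), the long CASC15 knockdown with no treatment, and the long CASC15 knockdown with angiotensin II; agents were given for 24 h. Groups are those of the library names in the labels; the titles of 10 of the 13 knockdown and overexpression libraries name CASC16 to CASC22 instead. Each replicate carries a batch label, P16, P17, P18 or P19; run 2 holds P17 to P19 and run 3 all 4, and sets of 4 values below are in the order P16 to P19. The labels do not say what these batches are, whether each library is a separate culture from a separate animal, or what distinguishes the total from the long knockdown, and the growth protocol speaks of mouse and rat cells; p-values below measure the spread between these libraries.

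Before S phase, the origin recognition complex, CDC6 and CDT1 load the ring-shaped MCM helicase onto DNA at origins, a step called licensing that geminin restrains by binding CDT1. CDC45 and the GINS complex then join the loaded helicase and switch it on; polymerase alpha with primase starts each strand, polymerases epsilon and delta extend it on the PCNA clamp that the RFC complex loads, RPA coats the exposed single strands, and FEN1 and DNA ligase I finish the lagging strand. Ribonucleotide reductase, thymidylate synthase and thymidine kinase supply nucleotides. Many of these genes are textbook targets of the E2F factors, which are held in check in quiescent cells and released as cells enter the cycle, and PDGF-BB is a classical mitogen of arterial smooth muscle.

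Because E2F sites are the best known shared feature of these promoters, RefSeq promoter sequences (GRCm38.p6; 250 bases before to 50 bases after each start, 300 in all) were searched for them. RefSeq windows were matched for 41 of the 50 genes, 49 windows in all; Mcm4, Gmnn, Gins1, Gins2, Gins4, Prim2, Pole, Rfc2 and Tipin had none in the table. The 250 bases before the start are shown for 4 genes with an octamer among the strongest responders or the enzymes that begin synthesis, and for Rrm2, a strong responder without one. Capitals mark the E2F octamers (TTTGGCGC, TTTCCCGC, TTTGCCGC or TTTCGCGC, on either strand); each sequence runs 5′ to 3′ on the gene's own strand, which is + for Cdc6 (chr11:98907901-98908150), Orc1 (chr4:108579204-108579453), Mcm5 (chr8:75109259-75109508) and Rrm2 (chr12:24708004-24708253) and - for Pola1 (chrX:93632156-93632405).
Cdc6: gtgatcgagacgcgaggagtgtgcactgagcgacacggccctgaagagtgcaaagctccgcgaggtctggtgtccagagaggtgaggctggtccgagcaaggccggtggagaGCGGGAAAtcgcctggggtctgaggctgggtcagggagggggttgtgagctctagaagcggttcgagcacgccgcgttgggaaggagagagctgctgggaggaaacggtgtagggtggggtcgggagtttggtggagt
Orc1: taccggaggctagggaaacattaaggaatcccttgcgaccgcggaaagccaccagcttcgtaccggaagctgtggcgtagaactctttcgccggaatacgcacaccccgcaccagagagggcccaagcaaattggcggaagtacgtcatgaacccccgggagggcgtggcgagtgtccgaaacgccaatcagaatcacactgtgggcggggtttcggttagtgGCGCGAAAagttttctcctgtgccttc
Mcm5: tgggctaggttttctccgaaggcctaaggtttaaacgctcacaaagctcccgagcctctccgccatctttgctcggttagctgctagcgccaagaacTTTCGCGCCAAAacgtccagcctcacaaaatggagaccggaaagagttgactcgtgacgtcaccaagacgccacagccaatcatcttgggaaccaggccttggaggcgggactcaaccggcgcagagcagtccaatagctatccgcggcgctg
Pola1: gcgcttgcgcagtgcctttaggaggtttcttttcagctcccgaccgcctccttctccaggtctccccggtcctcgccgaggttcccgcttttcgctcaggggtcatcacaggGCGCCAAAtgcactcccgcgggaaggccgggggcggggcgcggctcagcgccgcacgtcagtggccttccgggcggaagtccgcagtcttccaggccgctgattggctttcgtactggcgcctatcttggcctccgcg
Rrm2: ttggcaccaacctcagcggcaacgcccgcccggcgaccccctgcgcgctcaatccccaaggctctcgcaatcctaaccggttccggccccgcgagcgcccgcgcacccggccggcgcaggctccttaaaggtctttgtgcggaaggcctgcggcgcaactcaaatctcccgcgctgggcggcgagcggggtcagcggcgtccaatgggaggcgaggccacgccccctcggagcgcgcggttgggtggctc

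The Cdc6 octamer begins 138 bases before the start, that of Orc1 27 bases before it and that of Pola1 138 bases before it, each on the opposite strand. In Mcm5 a pair of octamers on opposite strands, 153 and 149 bases before the start, overlaps in a single run of capitals. An octamer was present in 15 of 49 windows of the replication genes (30.6%) against 744 of all 32851 promoter windows (2.26%). The 15 genes were Mcm3, Mcm5, Mcm6, Mcm7, Orc1, Orc3, Cdc6, Cdt1, Gins3, Pola1, Pold1, Pold3, Pole2, Rfc3 and Lig1. The CCAAT box (CCAAT, either strand) was in 53.1% of these windows and 37.4% of all windows, and the CHR letters TTTGAA, known from mitotic gene promoters, in 10.2% and 17.9%. Octamers that overlap on opposite strands, as in Mcm5, were each found, and a window or gene was counted once for a motif; a match describes letters only.

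Libraries held 15771490 to 30362047 counts, and values are given as CPM, counts scaled to a common library size. Of 8 smooth muscle markers, Acta2 stood at 89.1 to 432 CPM and Smtn at 42.3 to 98.8 CPM, while Tagln, Cnn1, Myh11, Myocd, Lmod1 and Des were at most 3.52, 0.229, 6.81, 3.89, 1.83 and 2.38 CPM, and 5 summed fibroblast markers stood at 3454 to 5936 CPM. Of the markers of other cell types, Cdh5 (endothelium), Ptprc and Adgre1 (leukocytes) had at most 2 counts in any library, but Vwf and Pecam1 (endothelium) reached 137 and 73 counts, Cd68 and Csf1r (macrophages) 355 and 101, and Cdh1 (epithelium) stood at 36.0 to 185.5 CPM. The transcript taken here as mouse CASC15, 2610307P16Rik (no table used here pairs the names), was 111-fold higher in the overexpression group and lower in the long knockdown (log2 fold change -0.95 untreated, edgeR adjusted p = 0.000832, and -0.79 with angiotensin II, 0.00372), but was not lower in the libraries labelled total CASC15 knockdown (0.36, adjusted p = 0.739). Libraries of batch P19 stood apart from the rest in both runs for these replication genes, as described at the end.

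Together the 50 genes took 0.106% to 0.125% of all counts in the 4 untreated antisense control libraries of run 3, 0.108% to 0.132% with angiotensin II, and 0.111% to 0.125% in the long knockdown with no treatment. With PDGF-BB they took 0.330% to 0.397%, above every other library. Per kilobase of exon, the scale on which genes can be compared, the most abundant in untreated controls was Pcna, the sliding clamp, at 28.3 ± 4.33 CPM per kb (SD, n = 4), then Mcm6 at 21.5 ± 1.17 and Gins4 at 16 ± 0.791. The least abundant were Orc1, the largest subunit of the origin recognition complex, at 0.148 ± 0.0983, Mcm10 at 0.308 ± 0.0999 and Cdc6 at 0.42 ± 0.343 CPM per kb. The Pcna libraries all lay above the Mcm6 libraries and these above the Gins4 libraries, while Mcm10 and Cdc6 overlapped and did not differ beyond their spread; Orc1 overlapped Cdc6 and lay just below Mcm10.

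PDGF-BB raised nearly the whole replication machinery. Against untreated antisense controls, 48 of the 50 genes rose, none fell, and the median log2 fold change was 1.81 against -0.02 over all genes tested. Of all genes tested, 43.6% were called in this comparison and 23.6% were called higher. The largest rises were in Cdc6 and Orc1, which license origins, Mcm10, Rrm2 and Mcm5; Orc3 and Orc4, subunits of the origin recognition complex, did not pass the test. Calls throughout are edgeR quasi-likelihood tests at a Benjamini-Hochberg adjusted p under 0.05 over all genes, and in these bulk libraries more cells in S phase and more RNA per cell cannot be told apart.

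**Figure D1:**
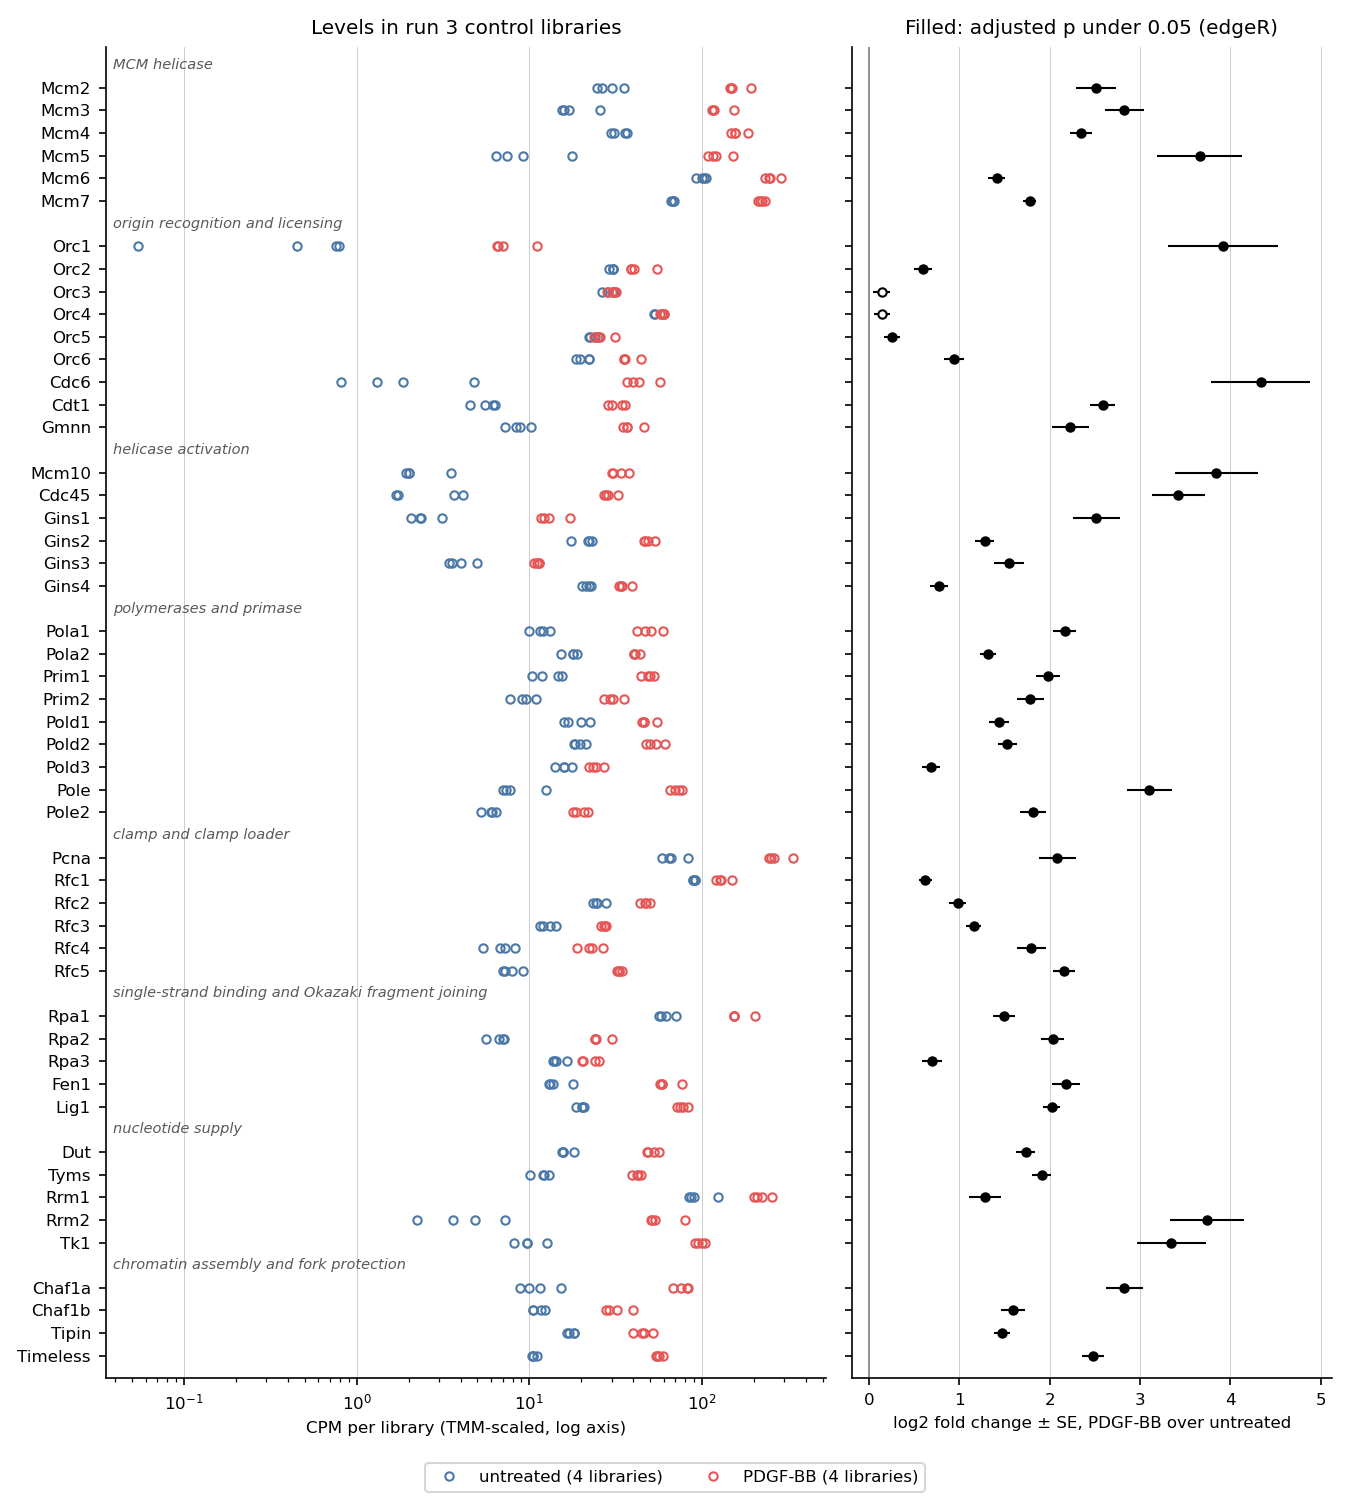
Level of each replication gene in the 4 untreated and the 4 PDGF-BB antisense control libraries of run 3, as CPM on a log axis, grouped by role (left), and the log2 fold change with 1 SE (right; filled where adjusted p is under 0.05); points on the left are libraries. The PDGF-BB points of Cdc6, Mcm10 and Mcm5 lie far above the untreated ones, while those of Orc3 and Orc4 overlap them.

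All 6 subunits of the MCM helicase, the ring that unwinds DNA, rose, with a median log2 fold change of 2.43. Mcm5 read 7.45, 6.42, 9.17 and 17.7 CPM in untreated controls and 109, 116, 120.0 and 152 CPM with PDGF-BB. The groups did not overlap, the untreated P19 library being the highest of its group, and Mcm5 rose 12.6-fold (log2 3.66 ± 0.47, SE; edgeR adjusted p = 1.11e-05). Mcm2 read 24.8, 26.4, 30.3 and 35.5 CPM untreated and 146, 149.9, 147 and 191 with PDGF-BB, a 5.71-fold rise (adjusted p = 8.51e-08). Mcm6 started highest, at 100.1, 92.7, 103 and 105 CPM, and reached 247, 246, 233 and 289 CPM. Its rise of 2.67-fold was the smallest of the 6, again without overlap. Mcm3, Mcm4 and Mcm7 rose 7.09-, 5.09- and 3.43-fold.

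The helicase is a ring with 1 copy of each subunit, yet in starved cells its transcripts were far from equal. Per kilobase, the most abundant subunit exceeded the least abundant 5.07- to 12.4-fold within single untreated libraries (Mcm6 at 21.5 and Mcm5 at 2.55 CPM per kb on average). With PDGF-BB that span was 2.25- to 2.52-fold in the 4 libraries, from Mcm6 at 54.3 to Mcm2 at 22.8 CPM per kb. Subunits of other complexes also drew closer: the span among the 5 RFC clamp loader subunits was 7.76- to 9.78-fold untreated and 2.88- to 3.37-fold with PDGF-BB, and that between the polymerase epsilon subunits Pole and Pole2 1.99- to 3.28-fold and 1.07- to 1.16-fold. For the ribonucleotide reductase subunits Rrm1 and Rrm2 it was 4.26- to 9.74-fold and 1.04- to 1.24-fold. The subunits of polymerase alpha and primase were the exception among these sets, with 2.37- to 2.95-fold untreated and 2.42- to 2.87-fold with PDGF-BB. These complexes were chosen after the values were seen, and the spans are a description with no test.

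Of the 9 origin recognition and licensing genes, 7 rose. Cdc6, the loader ATPase, read 1.3, 0.816, 1.87 and 4.81 CPM untreated and 40, 36.7, 42.9 and 57.5 CPM with PDGF-BB. Every treated library lay several-fold above the highest control, P19, and the rise of 20.2-fold (log2 4.34 ± 0.55; edgeR adjusted p = 6.98e-06) was the largest of the 50. Orc1, the subunit that varies with the cell cycle, read 0.758, 0.0544, 0.454 and 0.79 CPM and 7, 6.52, 6.56 and 11.1 CPM, a 15.1-fold rise (log2 3.92 ± 0.61) resting on a control level of as little as 1 count in 1 library. Cdt1, the partner of CDC6 in loading, read 5.51, 4.52, 6.15 and 6.32 and 34.3, 28.6, 30 and 35.8 CPM and rose 6.01-fold. Gmnn, its inhibitor geminin, rose 4.69-fold, from 8.42, 8.87, 7.21 and 10.2 to 37, 36.6, 35 and 46.2 CPM; neither gene's groups overlapped.

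The other subunits of the origin recognition complex moved little. Orc6 rose 1.92-fold and Orc2 1.51-fold. Orc5 passed the test with a log2 fold change of only 0.26 ± 0.087 (edgeR adjusted p = 0.0216), and its groups overlapped, 24.9, 22.4, 24 and 22.1 CPM against 25.8, 23.8, 24.9 and 31.2 CPM, the treated P19 library being the highest. It did not pass in 6 of 27 alternatives; without the treated P19 library Orc5 was 0.13 and did not pass. Orc4 read 59.3, 53.8, 53.1 and 59.1 CPM untreated and 57.3, 60.1, 60.4 and 58.5 with PDGF-BB (log2 0.15 ± 0.09, adjusted p = 0.201), and Orc3 31.1, 30.5, 28.5 and 26.5 and 30.2, 31.6, 28.3 and 31.7 (log2 0.14 ± 0.092, adjusted p = 0.224). Orc3 was one of the 15 genes with an octamer in its promoter. Over the 15 genes with an octamer the median log2 fold change with PDGF-BB was 1.82, and over the 26 matched genes without one it was 1.85.

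All 6 genes of helicase activation rose. Mcm10, which helps open the loaded helicase, read 1.94, 2.01, 2.02 and 3.52 CPM untreated and 30.4, 33.8, 30 and 37.7 CPM with PDGF-BB, a 14.4-fold rise (log2 3.84 ± 0.46; edgeR adjusted p = 2.78e-06). Cdc45, the helicase cofactor, read 1.68, 1.74, 3.68 and 4.12 and 27.1, 27.8, 28.4 and 32.7 CPM and rose 10.7-fold. In both genes all treated libraries lay above all controls. The 4 GINS subunits were uneven. Gins1 read 2.36, 2.07, 2.32 and 3.13 CPM untreated and 13, 11.6, 12.2 and 17.3 CPM with PDGF-BB, rising 5.73-fold, Gins3 2.92-fold, Gins2 2.43-fold and Gins4 1.71-fold.

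All 9 polymerase and primase subunits rose, led by Pole, the catalytic subunit of the leading-strand polymerase. Pole read 7.32, 7.07, 7.71 and 12.4 CPM untreated and 65.1, 73.3, 76.9 and 69.4 CPM with PDGF-BB, an 8.59-fold rise (log2 3.10 ± 0.25; edgeR adjusted p = 1.85e-08), while its partner Pole2 rose 3.52-fold. The treated P19 library was not the highest for Pole, unlike for most of the 50 genes. Pola1, the catalytic subunit of polymerase alpha, read 9.93, 11.5, 12 and 13.2 CPM untreated and 42, 50.8, 46.8 and 59.3 with PDGF-BB. Prim1, the primase catalytic subunit, read 10.4, 11.9, 15.6 and 14.7 and 44.6, 50.4, 49 and 53.1 CPM. The groups were apart for both, and Pola1, Prim1 and the other primase subunit Prim2 rose 4.49-, 3.95- and 3.45-fold. Of the lagging-strand polymerase delta, the catalytic subunit Pold1 read 16.7, 20, 22.4 and 15.8 and 54.6, 46.4, 46 and 44.7 CPM, with P16 the highest treated library. Pold1 and Pold2 rose 2.71- and 2.89-fold and Pold3 1.61-fold, the smallest rise of the role.

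The clamp and its loader rose in 6 of 6 genes. Pcna read 64.4, 58.5, 65.9 and 82.7 CPM untreated and 244, 250.1, 261 and 339 CPM with PDGF-BB, without overlap and with P19 highest in both groups, a rise of 4.25-fold (log2 2.09 ± 0.20; edgeR adjusted p = 2.39e-07). Among the loader subunits Rfc5 rose 4.46-fold and Rfc4 3.47-fold, while Rfc1, the large subunit, which started highest per kilobase of the 5, rose 1.54-fold.

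All 5 genes of single-strand binding and Okazaki fragment joining rose. Fen1, the flap nuclease, read 13.8, 13.2, 13.1 and 17.9 CPM untreated and 57.4, 58.7, 58.8 and 76.3 CPM with PDGF-BB and rose 4.55-fold, and Lig1, the ligase that seals nicks, rose 4.06-fold. Rpa2, the subunit of RPA that is phosphorylated in the cycle, read 5.6, 7.02, 6.65 and 7.15 and 24, 24.1, 24.5 and 30 CPM. For both Fen1 and Rpa2 P19 was the highest treated library and the groups did not overlap. The RPA subunits Rpa2, Rpa1 and Rpa3 rose 4.1-, 2.82- and 1.62-fold.

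Nucleotide supply rose in 5 of 5 genes. Rrm2, the regulated small subunit of ribonucleotide reductase, read 4.88, 2.23, 3.63 and 7.28 CPM untreated and 53.5, 51.3, 50.4 and 79.3 CPM with PDGF-BB. It rose 13.4-fold (log2 3.74 ± 0.41; edgeR adjusted p = 1.17e-06) with no overlap, while Rrm1, the large subunit, went from 83.9, 86.3, 89.9 and 123 to 202, 222, 209 and 253 CPM, 2.43-fold. Tk1, thymidine kinase of the salvage pathway, read 9.77, 8.11, 9.73 and 12.7 and 105, 91.8, 95.3 and 99.6 CPM and rose 10.2-fold. Tyms, thymidylate synthase, read 12.1, 10.1, 11.9 and 13 and 39.5, 42.3, 42.8 and 44.3 CPM. The treated libraries were above all controls for both, and Tyms and Dut, which clears dUTP, rose 3.76- and 3.33-fold.

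All 4 genes of chromatin assembly and fork protection rose. Chaf1a, the large subunit of the histone chaperone CAF-1, read 8.84, 10, 11.5 and 15.3 CPM untreated and 68.4, 75.9, 82.6 and 82.3 CPM with PDGF-BB. Timeless, of the fork protection pair, read 10.5, 10.3, 11.1 and 10.6 and 56.4, 59.9, 54.4 and 54.9 CPM, the 4 libraries of each group lying close together and P19 not standing out. The CAF-1 subunits Chaf1a and Chaf1b rose 7.09- and 3.02-fold, and Timeless and its partner Tipin 5.59- and 2.78-fold.

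The PDGF-BB response held within each batch. In a comparison of the treated with the untreated library of the same batch, 48 of the 50 genes were higher in all 4 batches, and the median log2 ratio was 1.73 to 1.79. This comparison was not made for all genes, so it has no background share. With the batch as a block the same number of genes rose, 48, beside 54.5% of all genes called (4281 of 15103 higher and 3957 lower). Of 43 further replication genes tested, from a list on origin firing, licensing control, fork processing, histone supply and nucleotide metabolism, 36 rose and 2 fell. Of all genes tested without the block, 43.6% were called and 23.6% called higher. The largest rises in fork processing, histone supply and licensing control were in Pclaf, a PCNA-binding factor, Asf1b, a histone chaperone, and Dtl, which directs CDT1 to destruction, by 4.11, 3.72 and 2.82 on the log2 scale. All 8 origin firing genes rose, led by Ticrr, which brings CDC45 to the helicase, at 9.13-fold. The 2 that fell act on nucleotides: Samhd1, which degrades dNTPs (log2 -0.17 ± 0.064, edgeR adjusted p = 0.0376, not called without the low-count filter, the P18 control, the P18 or P19 PDGF-BB library or the P17 control with angiotensin II), and Rrm2b, the alternative small subunit of ribonucleotide reductase (log2 -0.30 ± 0.073, adjusted p = 0.00258). Mitotic genes named for reference, Mki67, Ccnb1, Plk1, Aurkb and Bub1b, rose by 3.77, 3.58, 3.71, 3.92 and 3.54. Beside these rises, the summed level of 4 epithelial markers, nearly all of it Cdh1, was 142 to 186 CPM with PDGF-BB against 94.1 to 127 CPM in untreated controls, and 5 endothelial markers summed to 0.329 to 1.00 against 1.22 to 2.67 CPM. The 8 smooth muscle markers summed to 181 to 209.6 CPM with PDGF-BB against 242 to 276 CPM; their part in the result was not tested.

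The long CASC15 knockdown called replication genes in both directions, and how many depended on how the batches were treated: 5 in untreated cells and 6 with angiotensin II without the batch as a block, and 19 and 17 with it. Without the block, in untreated cells 3 of the 50 were higher and 2 lower than in antisense controls, or 10%, beside 25% of all genes called, and the median log2 fold change was -0.06. With angiotensin II in both arms, 3 were higher and 3 lower, or 12%, beside 26.7% of all genes. The 3 higher genes were the same under both conditions, which have separate controls and separate knockdown libraries: Lig1, Pola2 and Mcm7. Pole2 was lower under both, 50.0% of the genes lower in untreated cells and 33.3% of those lower with angiotensin II.

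**Figure D2:**
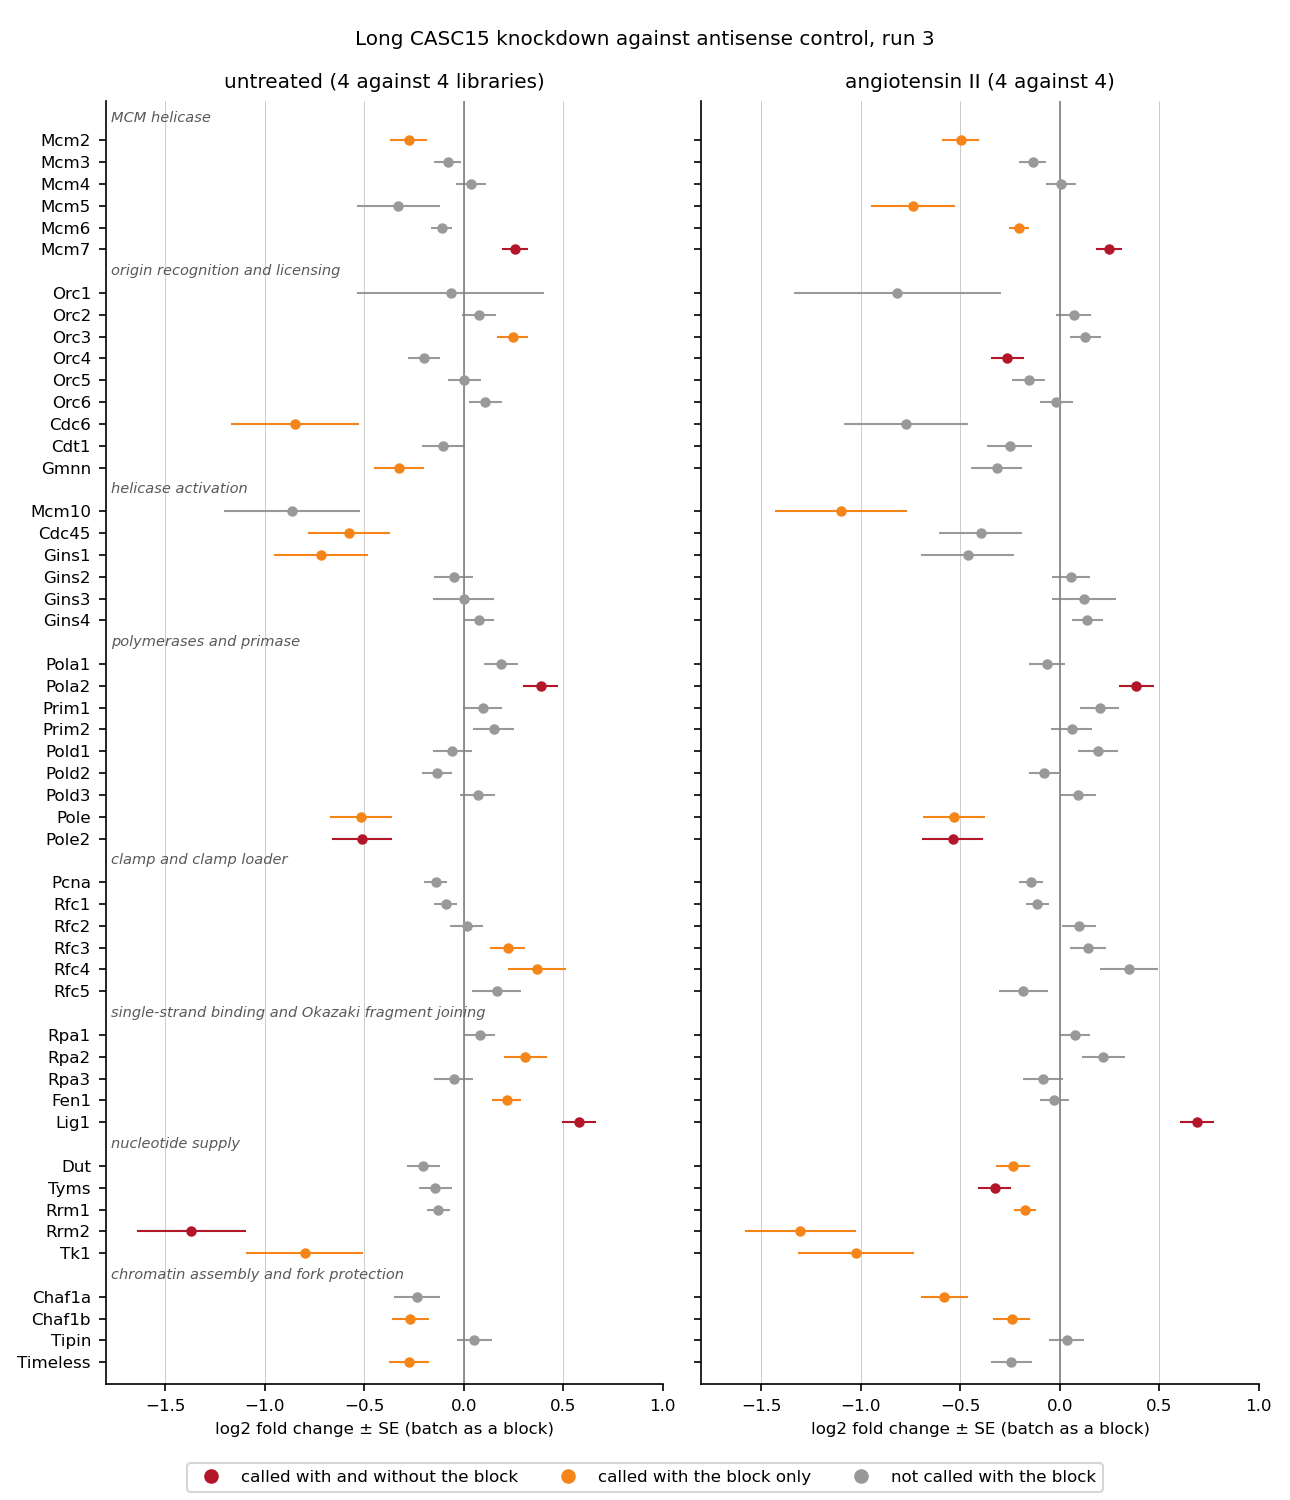
Log2 fold change of each of the 50 genes in the long CASC15 knockdown with the batch as a block, in untreated cells and with angiotensin II, bars showing 1 SE; red marks genes called with and without the block, orange genes called with the block only, grey genes not called. Lig1 is the highest and Rrm2 the lowest gene in both conditions.

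Lig1, which seals Okazaki fragments, showed the clearest difference. It read 18.7, 20.2, 20.2 and 20.8 CPM in untreated controls and 30.3, 32.9, 32.3 and 27.9 CPM in the knockdown, and 16.4, 18.3, 24.2 and 22.1 against 35.6, 31.9, 36 and 30.8 CPM with angiotensin II. The knockdown libraries lay above all controls under both conditions, and P19 was the lowest knockdown library each time. Lig1 rose 1.49-fold (log2 0.58 ± 0.10; edgeR adjusted p = 0.000203) and 1.61-fold (0.68 ± 0.10; 3.56e-05). Pola2, the regulatory subunit of polymerase alpha, read 18, 18.9, 18 and 15.3 CPM in untreated controls and 23.9, 25.4, 22.8 and 22.5 in the knockdown, and 16.4, 17, 18.9 and 20.9 against 25.6, 27.2, 23.9 and 22 CPM with angiotensin II. It rose 1.31- and 1.31-fold (adjusted p = 0.00287 and 0.00286), again with no overlap.

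Mcm7 was the one helicase subunit called in the fit of all libraries without the block. It read 68.9, 66.5, 68.2 and 67.7 CPM untreated and 86.9, 86.5, 91.1 and 71 in the knockdown, and 71, 64.1, 69.3 and 77.2 against 90.4, 88.5, 85.6 and 80.6 with angiotensin II, the groups just clear of each other, with the P19 libraries the closest. The rises were 1.19- and 1.19-fold (edgeR adjusted p = 0.0101 and 0.0123). They did not pass without the P18 knockdown library in untreated cells or without the P17 control library with angiotensin II. None of the other 5 subunits was called under either condition in that fit, Mcm5 standing at -0.31 ± 0.47 and -0.69 ± 0.48; with the block Mcm2 was called lower under both conditions and Mcm5 and Mcm6 with angiotensin II. Without batch P19 and without the block, Mcm2, Mcm5 and Mcm6 were called lower under both conditions, at -0.38, -0.50 and -0.17 on the log2 scale in untreated cells and -0.53, -0.91 and -0.23 with angiotensin II. The difference between subunits was not tested.

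Among the lower genes, Rrm2 read 4.88, 2.23, 3.63 and 7.28 CPM in untreated controls and 0.869, 1.45, 1.7 and 3.37 in the knockdown, and 3.68, 4.56, 3.24 and 5.94 against 1.12, 0.83, 1.86 and 3.76 CPM with angiotensin II. The knockdown library was the lower of the pair in all 4 batches under both conditions, but the groups overlapped, the P19 knockdown library reaching the lower controls. Rrm2 fell by 1.37 on the log2 scale in untreated cells (SE 0.46; edgeR adjusted p = 0.0355) and stood at -1.23 ± 0.46 with angiotensin II (adjusted p = 0.0588, not called). With the batch as a block it fell under both conditions, by 1.37 and 1.3 (adjusted p = 0.00085 and 0.00145); without the block the untreated call did not hold when any of 5 single libraries was left out. Pole2, the accessory subunit of polymerase epsilon, read 5.26, 5.98, 6.1 and 6.39 against 4.3, 4.69, 4.09 and 4.18 CPM untreated, without overlap, and 8.5, 5.94, 4.3 and 5.82 against 4.49, 3.82, 4.56 and 4.42 CPM with angiotensin II, with overlap. It fell by 0.51 and 0.55 on the log2 scale (adjusted p = 0.0189 and 0.0127). Without the P19 control or the P18 knockdown library in untreated cells, or the P16 control library with angiotensin II, it did not pass.

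With angiotensin II, Orc4 fell by 0.26 and Tyms by 0.33 on the log2 scale (edgeR adjusted p = 0.0364 and 0.0326). Tyms read 12.5, 13.5, 14.8 and 16.1 CPM in the controls and 11.1, 11.1, 11.3 and 13.4 CPM in the knockdown, and Orc4 59.1, 60.7, 56.9 and 44.7 against 44.9, 47.4, 55.9 and 42.2 CPM. The groups overlapped for both genes, and the calls were lost in 6 (Orc4) and 5 (Tyms) of the 8 fits that each left out 1 of these libraries.

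With the batch as a block, which the shared batch labels allow, more of the 50 genes passed: 8 higher and 11 lower in untreated cells, and 3 higher and 14 lower with angiotensin II, beside 40.6% and 41.3% of all genes. The shares among the 50 were 38% and 34%, below those over all genes. Lig1, Pola2 and Mcm7 were higher under both conditions, and Mcm2, Pole, Pole2, Rrm2, Tk1 and Chaf1b lower, 6 genes that make up 54.5% of those lower in untreated cells and 42.9% of those lower with angiotensin II. Tk1 read 9.77, 8.11, 9.73 and 12.7 CPM in untreated controls and 3.09, 4.28, 5.73 and 11.8 in the knockdown, lower in each batch with the smallest gap in P19, and fell by 0.80 and 1.03 in the blocked fits (edgeR adjusted p = 0.0464 and 0.0129). In untreated cells the blocked calls fell to Mcm2, Cdc6, Gmnn, Cdc45, Gins1, Pole, Pole2, Rrm2, Tk1, Chaf1b and Timeless on the lower side and to Mcm7, Orc3, Pola2, Rfc3, Rfc4, Rpa2, Fen1 and Lig1 on the higher side. With angiotensin II none of Orc3, Rfc3, Rfc4, Rpa2 and Fen1 was called higher. With angiotensin II the blocked lower calls included Mcm5 and Mcm10 (-0.74 and -1.10), at edgeR adjusted p = 0.0125 and 0.0143. Leaving out 1 library gave 10 to 23 blocked calls in untreated cells, with 10, 12 and 11 without the P16, P17 or P18 knockdown library and 12 without the P16 or the P18 control, and 14 to 21 with angiotensin II. The mitotic reference genes Mki67, Ccnb1, Plk1, Aurkb and Bub1b stood at -1.73, -1.68, -0.88, -1.36 and -0.88 in untreated cells with the block. All but Aurkb were called there. With angiotensin II the block called all of them lower, at -2.08, -1.87, -1.46, -1.99 and -1.21. Without the block only Plk1 with angiotensin II was called.

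Without the block, leaving out batch P19 gave 18 calls in untreated cells and 19 with angiotensin II, beside 40% and 39.9% of all genes, so the shares among the 50 (36% and 38%) were near the background. Leaving out single libraries gave 2 to 11 calls in untreated cells, with 11 when the P19 knockdown library was left out, 2 without the P18 knockdown library and 3 without the P19 control, and 4 to 13 with angiotensin II, the 13 again without the P19 knockdown library. In the fits of all batches, 25% and 26.7% of all genes were called without the block and 40.6% and 41.3% with it. Of the 43 further replication genes, 5 were higher and 7 lower in untreated cells and 4 and 10 with angiotensin II. Of the 2 that fell with PDGF-BB, looked up here after their values were seen, Samhd1 fell by 0.49 and 0.42 on the log2 scale and Rrm2b rose by 0.27 and 0.26 (edgeR adjusted p = 1.23e-05, 7.67e-05, 0.00883 and 0.0112). The Rrm2b calls did not hold without the P17 control in untreated cells or without the P16 control or the P18 knockdown library with angiotensin II. The 4 summed epithelial markers, nearly all Cdh1, were at 38.1 to 70.0 CPM in the untreated knockdown against 94.1 to 127 in its controls, and 5 summed fibroblast markers at 3554 to 4174 against 4388 to 5355 CPM. With angiotensin II the epithelial sum was 36.0 to 64.8 against 99.2 to 126 CPM, the fibroblast sum 3454 to 4126 against 4573 to 5223 CPM and the endothelial sum 2.26 to 4.33 against 0.84 to 2.22 CPM; their part in the result was not tested.

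Angiotensin II called none of the 50 genes. In antisense controls 0 of 50 passed, beside 0% of all genes, with 2 of the 50 and 156 of all genes at an unadjusted p under 0.05 by edgeR. In the long knockdown 0 passed, beside 0% of all genes, with 0 of the 50 at an unadjusted p under 0.05, and the interaction of knockdown and angiotensin II gave 0 calls, 0% of all genes and 0 of the 50 at that p. DESeq2 also called 0 of the 50 in all 3 tests. The median log2 fold change of the 50 was 0.044 in controls and 0.00098 in the knockdown. Mcm2, for example, read 24.8, 26.4, 30.3 and 35.5 CPM untreated and 30.6, 27.2, 32.5 and 43.9 with angiotensin II (log2 0.20 ± 0.22), and Cdc6 1.3, 0.816, 1.87 and 4.81 and 1.33, 2.06, 2.53 and 4.32 (log2 0.15 ± 0.58), so the groups overlapped. The gene nearest to a call was Rfc5 in controls (log2 0.31 ± 0.12, unadjusted p = 0.0221).

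In run 2, neither total CASC15 overexpression nor the libraries labelled total CASC15 knockdown gave a call among the 50 genes in the edgeR fit of all groups with the low-count filter and without the batch block. In the libraries labelled total CASC15 knockdown 0 of 50 passed against antisense controls, beside 2.07% of all genes, with 3 of the 50 and 1975 of all 15350 genes at an unadjusted p under 0.05 by edgeR. DESeq2 called 0 of the 50 there, beside 3.77% of all genes, and 43 of the 50 values were above 0, beside 50.8% of all genes. With overexpression 0 of 50 passed against plasmid controls, beside 1.65% of all genes, with 2 of the 50 and 2295 of all genes at an unadjusted p under 0.05 by edgeR. DESeq2 called 0 of the 50, beside 4.76% of all genes, and 44 of the 50 values were above 0, beside 50.1%. With the batch as a block 17 of the 50 rose and 1 fell in the labelled knockdown, beside 14.4% of all genes called (1345 of 15350 higher and 864 lower). With overexpression 17 rose and none fell, beside 17.7% called (1443 of 15350 higher and 1278 lower). Other edgeR fits without the block also made calls. In the labelled knockdown 13 genes were called without the low-count filter, 11 on only the groups compared and 10 without batch P19, beside 4.44%, 7.34% and 6.86% of all genes. With overexpression 5 were called without the filter and 1 without batch P19, beside 4.56% and 5.57%.

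**Figure D3:**
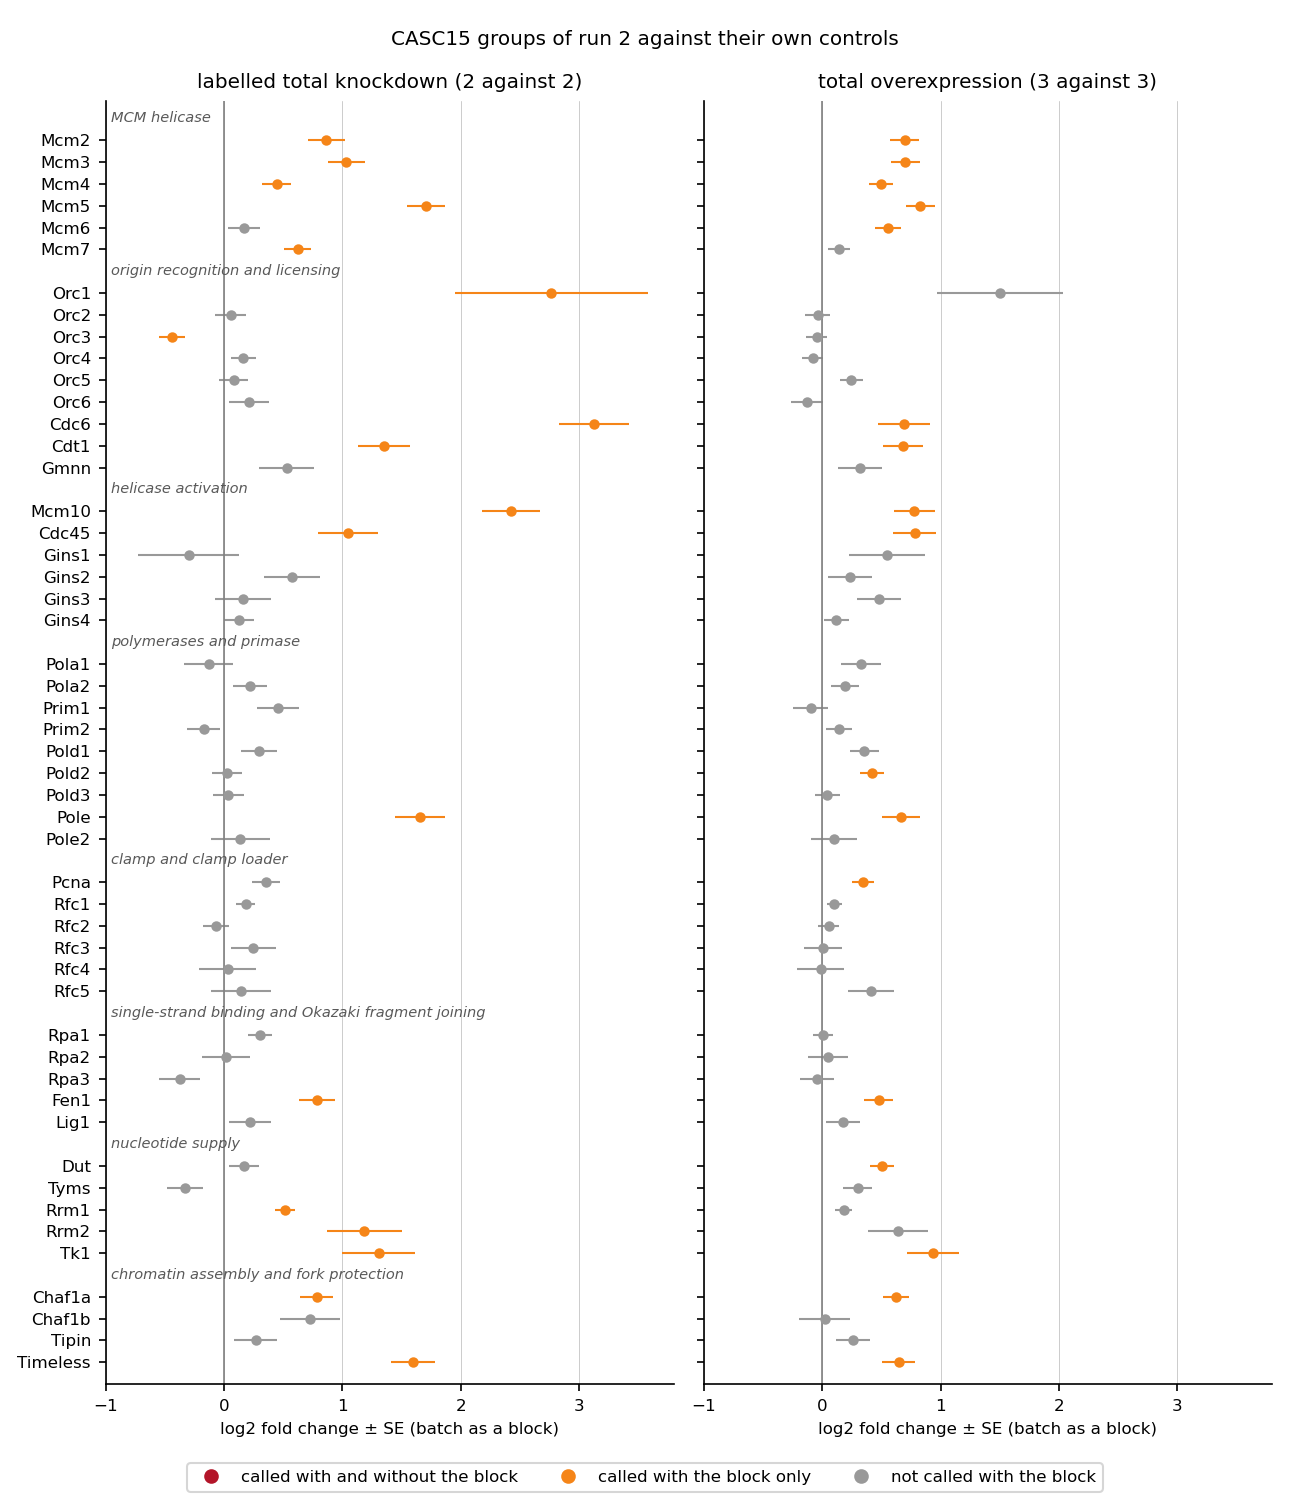
Log2 fold change of each of the 50 genes in run 2 with the batch as a block, for the libraries labelled total CASC15 knockdown against antisense controls and for overexpression against plasmid controls, bars showing 1 SE; orange marks genes called with the block only, grey genes not called. Cdc6 is the highest gene in the labelled knockdown.

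The largest rises in the labelled knockdown were those of Cdc6 and Orc1, which license origins, Mcm10 and Mcm5. Cdc6 read 0.366 and 1.18 CPM in the 2 antisense controls (P17 and P18) and 4.5 and 8.45 CPM in the 2 labelled knockdown libraries. Mcm5 read 5.8 and 6.12 against 14.8 and 24.8 CPM, and Mcm10 0.777 and 1.64 against 4.71 and 8.13 CPM. For all 3 genes the groups did not overlap, P18 being the higher of the labelled knockdown pair. In the blocked fit Cdc6 rose by 3.13 ± 0.29, Mcm5 by 1.71 ± 0.16 and Mcm10 by 2.43 ± 0.25 on the log2 scale (edgeR adjusted p = 0.000101, 0.000101 and 0.000179). Orc1, at 0.274 and 0 CPM in the controls and 0.828 and 1.19 CPM in the labelled knockdown, rose by 2.77 ± 0.81, from at most 6 counts. Over its 17 alternatives the Orc1 value ran from 1.85 to 7.28. Pole and Timeless rose by 1.66 and 1.60, and 5 of 6 MCM subunits, 3 of 9 origin recognition and licensing genes, 3 of 5 nucleotide supply genes and 0 of 6 clamp and loader genes rose. The 1 that fell was Orc3 (-0.44 ± 0.11, adjusted p = 0.0195), from 27.8 and 30.8 to 21.8 and 21.1 CPM. Its call did not hold without the P18 control or without either labelled knockdown library.

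Leaving out 1 library moved the 18 blocked calls of the labelled knockdown to between 7 and 20, with 7 without the P18 labelled knockdown library and 8 without the P18 control. Marker levels of other cell types differed in this group: 5 macrophage and leukocyte markers summed to 17.4 to 21.1 CPM in the labelled knockdown against 0.503 to 0.822 CPM in its controls, from Cd68 and Csf1r, with Ptprc and Adgre1 at no more than 2 counts in every library. The summed endothelial markers stood at 6.21 to 10.2 against 2.88 to 4.06 CPM, the epithelial at 74.2 to 96.2 against 45.5 to 46.0 CPM and the fibroblast at 4002 to 4576 against 5125 to 5180 CPM; their part in the result was not tested. The 43 further replication genes gave 0 calls without the block and 14 higher with it, beside 2.07% and 14.4% of all genes called. With the block Mki67, Ccnb1, Plk1, Aurkb and Bub1b were also called higher, by 1.57, 2.02, 1.56, 1.97 and 1.16. Without it none of these mitotic genes was called.

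With overexpression the 17 rises in the blocked fit were 0.34 to 0.93 on the log2 scale, the largest being those of Tk1 and Mcm5. Mcm5 read 8.8, 11.2 and 53 CPM in plasmid controls and 14.8, 20.3 and 86.5 CPM with overexpression, in the order P17 to P19. Each overexpression library was above the control of its batch, but the P19 control, several-fold above the other controls, made the groups overlap; Mcm5 rose by 0.83 ± 0.12 on the log2 scale (edgeR adjusted p = 0.000953) with the block and stood at 0.78 ± 0.81 (adjusted p = 0.706) without it. Tk1 read 2.67, 3.82 and 23.4 against 5.71, 8.98 and 32.7 CPM and rose by 0.93 ± 0.22 with the block (adjusted p = 0.0165). Of the MCM subunits 5 of 6 rose, Mcm7 being the one that did not, at 0.14 ± 0.094. Leaving out 1 library gave 8 to 18 blocked calls, with 10, 8 and 11 without the P17, P18 or P19 control and 10 and 11 without the P17 or P19 overexpression library, and leaving out batch P19 gave 10. Without the block and without the P19 overexpression library the values of Mcm5 and Tk1 were below 0. The 43 further replication genes gave 0 calls without the block and 10 higher with it, beside 1.65% and 17.7% of all genes called. With the block Mki67, Ccnb1, Plk1, Aurkb and Bub1b were also called higher, by 0.81, 0.81, 0.79, 1.08 and 0.83. Without it none of these mitotic genes was called. The summed epithelial markers, nearly all Cdh1, stood at 63.6 to 139 CPM with overexpression against 42.8 to 64.2 CPM in plasmid controls, with overlap; their part in the result was not tested.

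The controls themselves were compared because both knockdown and overexpression were read against them. Between plasmid and antisense controls 0 of 50 genes passed, beside 1.18% of all genes, with 3 of the 50 and 1444 of all genes at an unadjusted p under 0.05 by edgeR and 1 of the 50 called by DESeq2, beside 2.16%. Without the low-count filter 16 were called by edgeR, beside 3.7% of all genes. With the block 3 of the 50 rose, beside 2.99% of all genes called (363 of 15350 higher and 96 lower). These were Mcm5, Mcm6 and Mcm10, by 0.79, 0.66 and 1.22 on the log2 scale. Of these calls 0 were left without the P18 antisense control and 1 without the P17 or the P18 plasmid control. Only P17 and P18 hold both controls, where Mcm6 read 93.4 and 89.2 CPM in antisense and 116 and 164 CPM in plasmid controls.

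Libraries of batch P19 stood above those of the other batches within the same treatment for most of these genes. In run 2, 39 of the 50 genes were higher in P19 than in P17 and P18 and none was lower, beside 28.9% of all genes called and 15.6% called higher, with a median log2 fold change of 0.81. In run 3, 34 were higher and 2 lower in P19 than in P16 to P18, beside 46.3% called and 24.1% called higher, with a median of 0.24. In each of the 2 groups of run 2 that hold P19 it was the highest library for 40 of the 50 genes, which held for 26.1% of all genes. It was the highest in each of the 5 groups of run 3 for 16 of the 50 genes, 32%, against 8.16% of all genes. P19 also had the lowest mitochondrial share of counts in each of the 5 groups of run 3, for example 2.65% against 2.96% to 3.01% in untreated controls. In run 2 it had the lowest share in plasmid controls but not with overexpression. The labels call P19 a batch only, and what sets it apart was not tested.

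**Figure D4:**
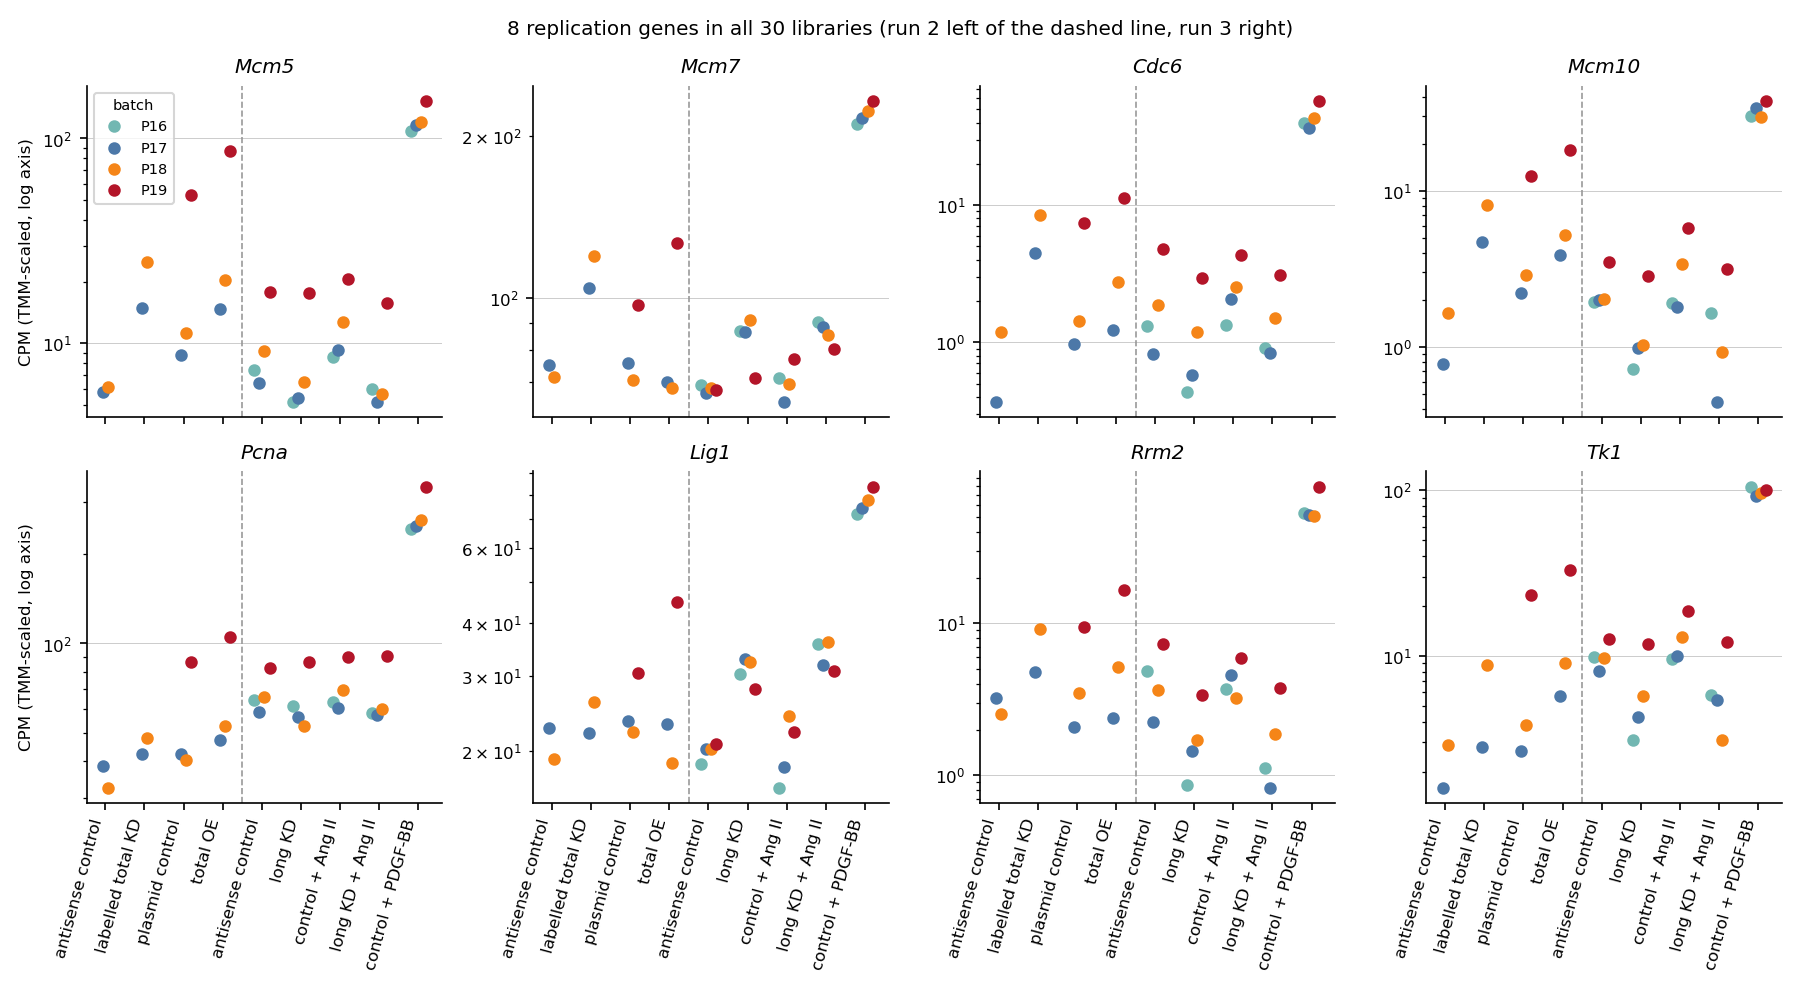
Levels of Mcm5, Mcm7, Cdc6, Mcm10, Pcna, Lig1, Rrm2 and Tk1 in all 30 libraries as CPM on a log axis, by group, with the batch P16 to P19 marked. The P19 points of Mcm5 and Cdc6 lie at the top of each group that holds them, and those of Lig1 are the lowest of both long knockdown groups.

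Cdc6, Tk1 and Mcm5 were higher in P19 of run 2 by 2.64, 2.53 and 2.38 on the log2 scale. In run 3 the largest were Orc1 (1.35), Cdc6 (1.31) and Mcm5 (1.13 ± 0.13, edgeR adjusted p = 1.03e-05). Mcm5 in plasmid controls of run 2 read 8.8, 11.2 and 53 CPM in P17, P18 and P19, so the P19 library stood several-fold above the other 2. The 2 genes lower in P19 of run 3 were Orc3 (-0.15) and Pold3 (-0.20), a subunit of polymerase delta. The Orc3 call did not hold in 19 of its 23 alternatives (DESeq2, RLE scaling, no low-count filter and 16 fits that left out 1 library), where it stood as near 0 as -0.0539 without the untreated P19 knockdown library. The Pold3 call did not hold without the low-count filter or without the P19 long knockdown library with angiotensin II. Of the 43 further replication genes, 27 were higher and 1 lower in P19 of run 2, and 25 and 1 in run 3. Of all genes, 28.9% and 46.3% were called, and 15.6% and 24.1% were called higher. The mitotic reference genes Mki67, Ccnb1, Plk1, Aurkb and Bub1b were called higher in P19 as well. They stood at 1.97, 2.12, 2.45, 2.51 and 2.04 on the log2 scale in run 2 and 1.65, 1.37, 0.79, 1.17 and 0.96 in run 3.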

How the data were processed

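RNA of 30 libraries of mouse aortic smooth muscle cells was sequenced as 75 bp read pairs, per the labels' protocols. The authors deposited 1 table of RSEM expected counts per gene for all libraries; the submitters' processing notes name STAR 2.7.11b and RSEM 1.3.1, and the builds GRCm39 and mm10 with no role, so no coordinates of the files are given. Strandedness is not given in the sources used here, so overlapping and antisense genes could not be told apart. Expected counts were rounded to whole numbers and library groups were taken from the library names in the labels and batches from their batch field; the titles of 10 of the 13 knockdown and overexpression libraries name CASC16 to CASC22, where the library names of a group give 1 target. Identifiers were matched to symbols with the GENCODE M21 annotation (GRCm38; 51486 of 78334 identifiers, 98.71% of counts), which also gave exon lengths; promoters came from RefSeq.

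Each run was fitted separately with edgeR 4.0.16 (R 4.3.3): TMM scaling, low-count filter (filterByExpr, minimum count 10, minimum total 15), quasi-likelihood tests on all groups of the run, and Benjamini-Hochberg adjustment over all genes tested, with calls at an adjusted p under 0.05. Values in CPM are TMM-scaled. The SE of a log2 fold change was derived from the test, as its absolute value divided by the square root of the quasi-likelihood F statistic. The batch label is shared across groups, so the batch was also fitted as a block. Deviations from group means correlated at 0.230 (run 2) and 0.197 (run 3) between libraries of 1 batch. Between batches the values were -0.121 and -0.0606. Subtracting group means ties these to the first values, so they are no separate contrast. The 38 pairs of libraries of the same group differed by more than sampling noise (chi-square per degree of freedom 4.22 to 74.6). Other alternatives were DESeq2 1.42.0, RLE scaling, no low-count filter, only the groups compared, leaving out batch P19 and leaving out each library; the block without batch P19 was chosen after seeing the data. Counts of calls with 1 library left out are given without the share of all genes called in those fits. The scripts were tested on simulated data.

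The 50 genes, the 44 further replication genes (1, Chtf8, left out because 2 identifiers share its symbol), the motifs and the markers were chosen with earlier results of these data known. The rule for naming gave library values under PDGF-BB for a listed set of genes and named, per comparison, the genes with the largest and smallest change of each role and all those called where 10 or fewer were; other genes named (Mcm6, Orc3, Orc4 and Orc5 by library, those called with the block, and those in the passages on complexes and batches) were chosen after their values were seen. Depth was lowest for Orc1, which had as few as 0 counts in a library.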

Additional observations from a re-analysis of the deposited data

Results flagged for a closer look

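Single libraries far from the other 3 of their group were looked for in 250 sets of 4 libraries (the 50 genes in the 5 groups of run 3). The gap to the nearest library was set against the range of the 4. If sets were independent, about 1 in 20 would have one by chance, and 33 did. Of these, 28 were P19 libraries and 25 of those were high. The sets share the same libraries, so that rate is no background for them. The rule was not applied to all genes, of which 46.3% were called in P19 of run 3. Values below are CPM, followed by the nearest of the other 3 libraries.

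In untreated antisense controls, the P19 library was high for Pole (12.45 against 7.712), Rpa3 (16.53 against 14.21), Fen1 (17.92 against 13.81), Mcm10 (3.524 against 2.016), Dut (18.08 against 15.74), Rrm1 (123.3 against 89.87) and Mcm3 (25.69 against 16.89). The P16 library was low for Orc2 (28.88 against 30.6) there. The P18 library was low for Gins2 (17.54 against 22.03) there. In antisense controls with PDGF-BB, the P19 library was high for Rpa1 (202.1 against 153.4), Mcm2 (191.2 against 149.9), Rrm2 (79.31 against 53.47), Fen1 (76.26 against 58.75), Orc2 (55.01 against 40.45), Orc1 (11.1 against 7.004), Rpa2 (30 against 24.47), Orc6 (44.15 against 35.66) and Mcm3 (152.9 against 118). The P16 library was high for Pold1 (54.64 against 46.39) there. In antisense controls with angiotensin II, the P19 library was high for Rfc4 (9.418 against 6.672).

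In the untreated long knockdown, the P19 library was high for Mcm5 (17.56 against 6.471), Chaf1b (11.99 against 9.196), Fen1 (21.63 against 16.41), Prim2 (12.8 against 10.16) and Mcm10 (2.838 against 1.022). The P19 library was low for Rfc1 (83.58 against 87.92) and Orc3 (27.04 against 38.49) there. In the long knockdown with angiotensin II, the P19 library was high for Mcm5 (15.66 against 5.983), Tyms (13.4 against 11.29) and Pcna (91.05 against 59.86). The P17 library was low for Mcm4 (30.82 against 36.89) there. The P18 library was high for Gins3 (4.816 against 4.039) there. The P19 library was low for Pold3 (12.6 against 17.43) there.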

How the results depend on the processing

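All counts are of the 50 genes. The share of all genes called in the same fit is in parentheses. It is not given for ranges with 1 library left out or for the angiotensin II tests. PDGF-BB gave 47 to 48 calls when any 1 library was left out, P19 33 to 36 in run 3 and 28 to 38 in run 2, and angiotensin II and its interaction 0 in every alternative run. The long knockdown in untreated cells gave 5 calls (25%), but 19 with the replicate block (40.6%), 18 without batch P19 (40%), 18 with both (42.2%), and 2 to 11 with 1 library left out. With angiotensin II it gave 6 (26.7%), but 17 with the block (41.3%), 3 on only the groups compared (24%), 19 without batch P19 (39.9%), 21 with the block and without P19 (42.1%), and 4 to 13 with 1 library left out. The labelled knockdown gave 0 (2.07%), but 13 without the low-count filter (4.44%), 18 with the block (14.4%), 11 on only the groups compared (7.34%), 10 without P19 (6.86%) and 19 with the block and without P19 (15.8%). Overexpression gave 0 (1.65%), but 5 without the filter (4.56%), 17 with the block (17.7%), 1 without P19 (5.57%), 10 with the block and without P19 (17.1%), and 0 to 1 with 1 library left out. Plasmid against antisense controls gave 0 (1.18%), but 1 by DESeq2 (2.16%), 16 without the filter (3.7%), 3 with the block (2.99%), 2 with the block and without P19 (2.77%), and 0 to 1 with 1 library left out. The block changed no other count by more than 1.5 times; the cause of these shifts was not tested.

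Of 141 values of single genes, 131 kept their direction and 81 their call in every alternative. Over 3409 alternative values 3193 kept direction and call, 66 lost a call, 140 gained one and 10 changed sign. With 1 library left out, the overexpression values ran from -0.41 to 2.10 (Mcm5), -0.31 to 1.93 (Mcm10), -0.22 to 1.80 (Cdc45), -0.38 to 2.37 (Tk1), -0.23 to 1.57 (Cdt1), -0.21 to 1.52 (Timeless), -0.24 to 1.57 (Pole) and -0.17 to 0.35 (Mcm7), lowest without the P19 overexpression and highest without the P19 control library. Orc3 in P19 of run 2 ran from -0.15 to 0.0098, and Mcm5 in the untreated long knockdown from -0.94 to 0.13. Orc1 and Cdc6, at 0.0544 to 0.79 and 0.816 to 4.81 CPM untreated, had the largest standard errors of the PDGF-BB fold changes of the 50; what sets them was not tested.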
